A study of Mus musculus with 35 samples.

Results

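The smooth muscle actin-SRF genes are 10 genes, chosen by symbol: 9 that encode parts of the smooth muscle contractile apparatus (Acta2, Actg2, Tagln, Cnn1, Cnn2, Tpm1, Tpm2, Myh11 and Myl9) and Srf, which encodes the transcription factor they are known to answer to. All 10 were found in each of 3 tables of RNA-seq values, among 17948 genes in day 3 neuroectoderm (NE) cells, 18091 genes in a Dnmt1 transfection experiment and 17705 genes in a Tet3-CD transfection experiment. The study asked what TET3, a 5-methylcytosine dioxygenase, does through its enzyme activity and what it does otherwise when mouse embryonic stem cells (ESCs) become NE. It therefore compared wildtype (Tet3+/+), catalytic mutant (Tet3m/m) and knockout (Tet3-/-) cells. All cells were V6.5 ESCs, a male line of mixed 129/C57BL/6 background, kept on gelatin with serum and LIF for a day and then, without LIF, given 1 µM retinoic acid (RA) for 72 hours, as the labels describe. Tet3m/m cells carry point mutations in the iron-binding site of TET3 on both alleles, and Tet3-/- cells lack an exon on both alleles, which shifts the reading frame. Day 3 NE cells comprised 3 Tet3+/+, 3 Tet3m/m and 2 Tet3-/- samples from independent ESC clones.

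The Dnmt1 experiment comprised 12 samples, 2 of each genotype transfected with empty vector (EV) and 2 of each with myc-tagged Dnmt1, the maintenance DNA methyltransferase. Cells were transfected as RA treatment began and then selected with blasticidin. The Tet3-CD experiment comprised 6 samples, 1 of each genotype with EV and 1 of each with Tet3-CD, the HA-tagged catalytic domain of TET3. These cells were transfected when RA treatment was already under way, and the study's methods give a total culture time beyond that in the labels. Which clones entered the transfection experiments is not given in the sources used here, and nothing says whether the paired samples were separate cultures, so that p-values there measure only the spread between these samples, which may be technical. The 2 EV Tet3+/+ samples share 1 column name and are called a and b.

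Smooth muscle cells contract when myosin, made of heavy chains such as MYH11 and regulatory light chains such as MYL9, pulls on actin filaments, which in these cells are built from ACTA2 and ACTG2. Calponins (CNN1, CNN2), transgelin (TAGLN) and tropomyosins (TPM1, TPM2) lie along the filament and stabilize it or gate the access of myosin. SRF binds a promoter element called the CArG box, and its cofactors of the myocardin family (MYOCD, MRTFA, MRTFB) turn on contractile genes. MRTFA and MRTFB do so when the pool of free actin monomers falls. The same program is active in fibroblasts, in myofibroblasts and in many cultured cells that spread and pull on their substrate, so that most of the 10 genes are not particular to smooth muscle cells.

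Recovered reads per sample ranged from 31155842 to 50845950 over the 26 samples, and the deposited values are counts normalized by the authors with DESeq2. Tet3 stood between 4576 and 5020 normalized counts in day 3 Tet3+/+ cells, between 1945 and 2666 in Tet3m/m and between 1796 and 2329 in Tet3-/- cells. In the Dnmt1 experiment Tet3 stood between 2957 and 3516 in Tet3+/+, between 964 and 1369 in Tet3m/m and between 2390 and 2632 in Tet3-/- cells. These gene-level counts do not separate the deleted exon, so that they check the label of Tet3-/- cells only in part. All 8 NE markers of a fixed list (Sox1, Sox2, Pax6, Nes, Hes5, Neurog2, Pax3, Zic1) had values above 0 in every day 3 group, with sums of 14003 to 26896 normalized counts per sample. By the thresholds given below, 5 of them fell in day 3 Tet3m/m cells, and 1 rose and 1 fell in Tet3-/- cells, where 10.2% and 0.642% of all genes passed. By direction alone, all 8 were lower in Tet3m/m (median log2 difference -1.02) and 7 in Tet3-/- cells (median -1.17). In Tet3-/- cells all 8 had an unadjusted p under 0.05 by limma, and edgeR called 1 and DESeq2 5. Replicates of a group differed by more than the sampling noise of their reads, with a median ratio of observed to expected squared difference of 8.26 to 21 on day 3 and of 3.08 to 5.52 in the Dnmt1 experiment. Tet3+/+ replicate 2 on day 3 was the lowest of the 3 Tet3+/+ samples for each of the 10 genes, which touches every day 3 comparison against Tet3+/+.

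Promoter sequence is shown because the CArG box is the element through which SRF is known to act. The genes were chosen as known to answer to SRF, so that the share of boxes among them is no independent result. The window from 250 bases before to 50 bases after the start of the gene was taken from RefSeq (GRCm38.p6), where 7 of the 10 genes had an entry. The entries for Tagln, Myh11 and Actg2 were not in the table. A perfect CArG box, which is CC and GG around a run of A and T and reads alike on both strands, was found in 3 of the 7 windows (42.9%), those of Myl9, Cnn2 and Srf. Over all 32851 promoters of the table it was found in 1.63%, and among 12237 genes tested in both replicated experiments in 1.65%. Near matches, searched only as boxes that keep CC and GG and hold 1 C or G within the run of A and T, were found in 2 of the 7 windows (28.6%), those of Acta2 and Myl9, against 8.5% of all promoters. This second search was added after the result of the first was known, and boxes with a mismatch in CC or GG were not searched. In Acta2 the near matches began 84 and 34 bases before the start, in Myl9 the perfect box began 161 and the near match 99 bases before it, in Cnn2 the box began 56 bases before it, and in Srf the pair began 82 and 62 bases before it. The windows of Cnn1, Tpm1 and Tpm2 held neither kind, which says only that these letters are not in this window. The windows of the 4 genes with a match are printed 5′ to 3′ on the strand of the gene, with perfect boxes and near matches of this kind in capitals. They lie at chr19:34255324-34255623 (minus strand) for Acta2, chr2:156775214-156775513 (plus strand) for Myl9, chr10:79988350-79988649 (plus strand) for Cnn2 and chr17:46556113-46556412 (minus strand) for Srf.
Acta2: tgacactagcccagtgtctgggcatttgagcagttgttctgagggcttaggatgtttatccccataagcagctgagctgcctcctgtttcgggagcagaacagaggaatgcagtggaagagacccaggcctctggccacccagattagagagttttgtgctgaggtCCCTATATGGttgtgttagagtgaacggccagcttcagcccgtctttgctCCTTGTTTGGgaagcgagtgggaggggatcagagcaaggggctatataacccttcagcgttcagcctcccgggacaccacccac
Myl9: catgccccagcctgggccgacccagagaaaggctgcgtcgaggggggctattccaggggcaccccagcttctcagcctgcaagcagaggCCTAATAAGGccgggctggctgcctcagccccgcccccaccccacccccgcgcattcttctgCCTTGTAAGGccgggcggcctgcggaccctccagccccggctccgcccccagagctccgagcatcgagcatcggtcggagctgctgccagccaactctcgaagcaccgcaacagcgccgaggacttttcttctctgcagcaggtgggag
Cnn2: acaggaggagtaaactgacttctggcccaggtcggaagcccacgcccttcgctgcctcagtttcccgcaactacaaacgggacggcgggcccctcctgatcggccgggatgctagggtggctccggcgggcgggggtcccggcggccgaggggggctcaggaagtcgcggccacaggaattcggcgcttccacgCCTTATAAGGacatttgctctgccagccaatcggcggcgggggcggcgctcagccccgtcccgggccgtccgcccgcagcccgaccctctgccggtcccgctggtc
Srf: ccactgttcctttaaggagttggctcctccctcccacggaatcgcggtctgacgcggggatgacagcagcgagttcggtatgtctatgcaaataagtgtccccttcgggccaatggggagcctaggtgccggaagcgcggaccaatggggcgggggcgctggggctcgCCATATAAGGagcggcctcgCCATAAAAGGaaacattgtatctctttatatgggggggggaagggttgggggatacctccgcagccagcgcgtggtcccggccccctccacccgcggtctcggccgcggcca

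In wildtype cells the 10 genes covered a wide range of levels. Per kilobase of exon, the scale on which genes of different length can be compared, the mean in day 3 Tet3+/+ cells was 10446 ± 5546 normalized counts for Acta2 (SD, n = 3), 7659 ± 1601 for Tpm1 and 5016 ± 1101 for Cnn2. Myl9 followed at 3010 ± 1163, Tagln at 1933 ± 781, Tpm2 at 1864 ± 525 and Srf at 1438 ± 88. The lowest were Cnn1 at 803 ± 425, Actg2 at 159 ± 103 and Myh11, the heavy chain typical of differentiated smooth muscle, at 31.6 ± 16.7 normalized counts per kilobase. Neighbours in this order overlapped between samples, except that Tpm1 lay above Cnn2, Srf above Cnn1 and Cnn1 above Actg2 in all samples. In EV Tet3+/+ cells of the Dnmt1 experiment Tpm1 came first at 5679 ± 127 normalized counts per kilobase (SD, n = 2), with Cnn2 at 4865 ± 258 and Acta2 at 3873 ± 164. There Myh11 was again last at 19.4 ± 1.21, and no neighbours in the order overlapped. Exon lengths were taken from the GRCm38 annotation, which is not the build of the alignment.

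On day 3, Acta2, Actg2 and the other contractile genes stood higher in both Tet3 mutants than in Tet3+/+ cells on average, with the highest values in Tet3-/- cells. For Tet3-/- cells, all values of all 10 genes lay above all Tet3+/+ values, which held for 20.8% of the genes tested. Their median difference was 1.46 on the log2 scale, a 2.75-fold level, against a median of -0.01 over all genes tested. Here and in what follows, differences are of log2(normalized count + 1), which slightly understates the change of low genes. A gene is called when its difference exceeds 1.5-fold and limma, after Benjamini-Hochberg adjustment over all genes tested, gives p under 0.05. Of the 10 genes, 2 were called in Tet3-/- cells, Myl9 and Cnn2, both higher, where 0.642% of all genes tested were called in either direction and 0.458% as higher. In Tet3m/m cells 1 of the 10 was called, Myh11, where 10.2% of all genes were called and 5.06% as higher. In such bulk samples, fewer cells of a type and less RNA per cell cannot be told apart.

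Acta2, the main actin of smooth muscle, measured 30084, 8877 and 29859 normalized counts in Tet3+/+ cells, 54761, 35831 and 19544 in Tet3m/m cells and 90774 and 101009 in Tet3-/- cells. Actg2, the enteric smooth muscle actin, measured 318, 63.5 and 362 in Tet3+/+, 729, 368 and 204 in Tet3m/m and 1181 and 963 in Tet3-/- cells. For both actins Tet3m/m samples overlapped Tet3+/+ samples, and both Tet3-/- samples were the highest of the experiment. The difference between Tet3-/- and Tet3+/+ was 2.26 ± 0.51 for Acta2 (log2 ± SE, limma, adjusted p = 0.0604) and 2.45 ± 0.68 for Actg2 (adjusted p = 0.0872), large in size and not past the threshold. Both genes encode closely similar actins, and whether reads are shared between them was not tested.

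Tagln, an actin-bundling protein and early smooth muscle marker, measured 4720, 2049 and 4756 normalized counts in Tet3+/+, 4542, 6761 and 4690 in Tet3m/m and 7542 and 10806 in Tet3-/- cells. Cnn1, the calponin of smooth muscle, measured 2725, 861 and 3002, then 4112, 3195 and 1719, then 7267 and 8237 in the same order. Cnn2, a calponin of many motile cells, measured 14052, 9218 and 13748, then 18753, 17216 and 13689, then 22968 and 24010. In all 3 genes 1 Tet3m/m sample or more fell within the Tet3+/+ range, and the Tet3-/- samples lay above every other sample. Tagln differed between Tet3-/- and Tet3+/+ by 1.33 ± 0.33 (limma, adjusted p = 0.071), Cnn1 by 2.01 ± 0.48 (adjusted p = 0.0671) and Cnn2 by 0.95 ± 0.18 (adjusted p = 0.04999). Cnn2 thus lies just within the threshold. In the GRCm38 annotation Tagln shares 62.4% of its exon bases with Gm48529 and 5.43% with Pcsk7 on the opposite strand, and whether counting used the strand is not given in the sources used here.

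Tpm1, a tropomyosin expressed in most cells as well as in muscle, measured 55307, 37688 and 56008 normalized counts in Tet3+/+, 84302, 67239 and 50848 in Tet3m/m and 96008 and 97176 in Tet3-/- cells. Tpm2, the beta tropomyosin, measured 6319, 3658 and 6291, then 7182, 6401 and 4679, then 10897 and 13074. Both were highest in the Tet3-/- samples and overlapped between Tet3m/m and Tet3+/+. Against Tet3+/+, the difference in Tet3-/- was 0.98 ± 0.22 for Tpm1 (limma, adjusted p = 0.0578) and 1.18 ± 0.24 for Tpm2 (adjusted p = 0.05063). Of the 10 genes only Tpm2 was called between Tet3-/- and Tet3m/m cells, at 0.99 ± 0.24 (limma, adjusted p = 0.0235), where 9.73% of all genes were called and 5.41% as higher. In that comparison, 9 of the 10 genes had all Tet3-/- values above all Tet3m/m values, which 20.7% of all genes had, and Myh11 did not.

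Myh11 measured 239, 114 and 368 normalized counts in Tet3+/+, 1141, 759 and 424 in Tet3m/m and 1440 and 917 in Tet3-/- cells. Myl9, the regulatory light chain of smooth muscle and non-muscle myosin, measured 4069, 1955 and 4469, then 6280, 5613 and 4255, then 9258 and 10522. Among the 10 genes, Myh11 alone had every Tet3m/m sample above every Tet3+/+ sample, as did 18.4% of all genes. It rose by 1.73 ± 0.43 in Tet3m/m cells (limma, adjusted p = 0.0227), a 3.31-fold difference, and differed by 2.41 ± 0.48 in Tet3-/- cells (adjusted p = 0.05055). Myl9 rose by 1.59 ± 0.30 in Tet3-/- cells (limma, adjusted p = 0.04933) and differed by 0.69 ± 0.27 in Tet3m/m cells (adjusted p = 0.113).

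Srf itself measured 4270, 3869 and 4340 normalized counts in Tet3+/+, 3913, 5361 and 5297 in Tet3m/m and 5709 and 5780 in Tet3-/- cells. Its highest sample was 1.49 times its lowest, whereas Actg2 spanned 18.6 times, Myh11 12.6 times and Acta2 11.4 times over the same 8 samples. Srf differed by 0.47 ± 0.14 between Tet3-/- and Tet3+/+ (limma, adjusted p = 0.0988) and by 0.21 ± 0.12 between Tet3m/m and Tet3+/+ (adjusted p = 0.289). The remaining Tet3m/m differences ranged from 0.19 ± 0.21 for Tpm2 to 0.96 ± 0.61 for Actg2, and none passed the threshold. The median of the 10 genes in Tet3m/m cells was 0.55, a 1.47-fold level, against 0.00 over all genes.

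The day 3 counts depended on which samples and test were used. With each sample left out in turn, between 0 and 9 of the 10 genes were called in Tet3-/- cells: 0 without any 1 of the Tet3+/+ samples, without Tet3m/m replicate 2 or without either Tet3-/- sample, 9 without Tet3m/m replicate 1 and 8 without Tet3m/m replicate 3. In Tet3m/m cells the count was 0 without Tet3+/+ replicate 1 or 2 or Tet3m/m replicate 1 or 2 and 2 without Tet3m/m replicate 3. Between both mutants it was 0 without Tet3m/m replicate 2 or 3 or either Tet3-/- sample, 4 without Tet3m/m replicate 1 and 5 without Tet3+/+ replicate 2. For Tet3-/- against Tet3+/+, DESeq2 on the recovered reads called 8 and edgeR 0, and without Tet3+/+ replicate 2 the median difference of the 10 genes was 1.07 in Tet3-/- and 0.17 in Tet3m/m cells.

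**Figure D1:**
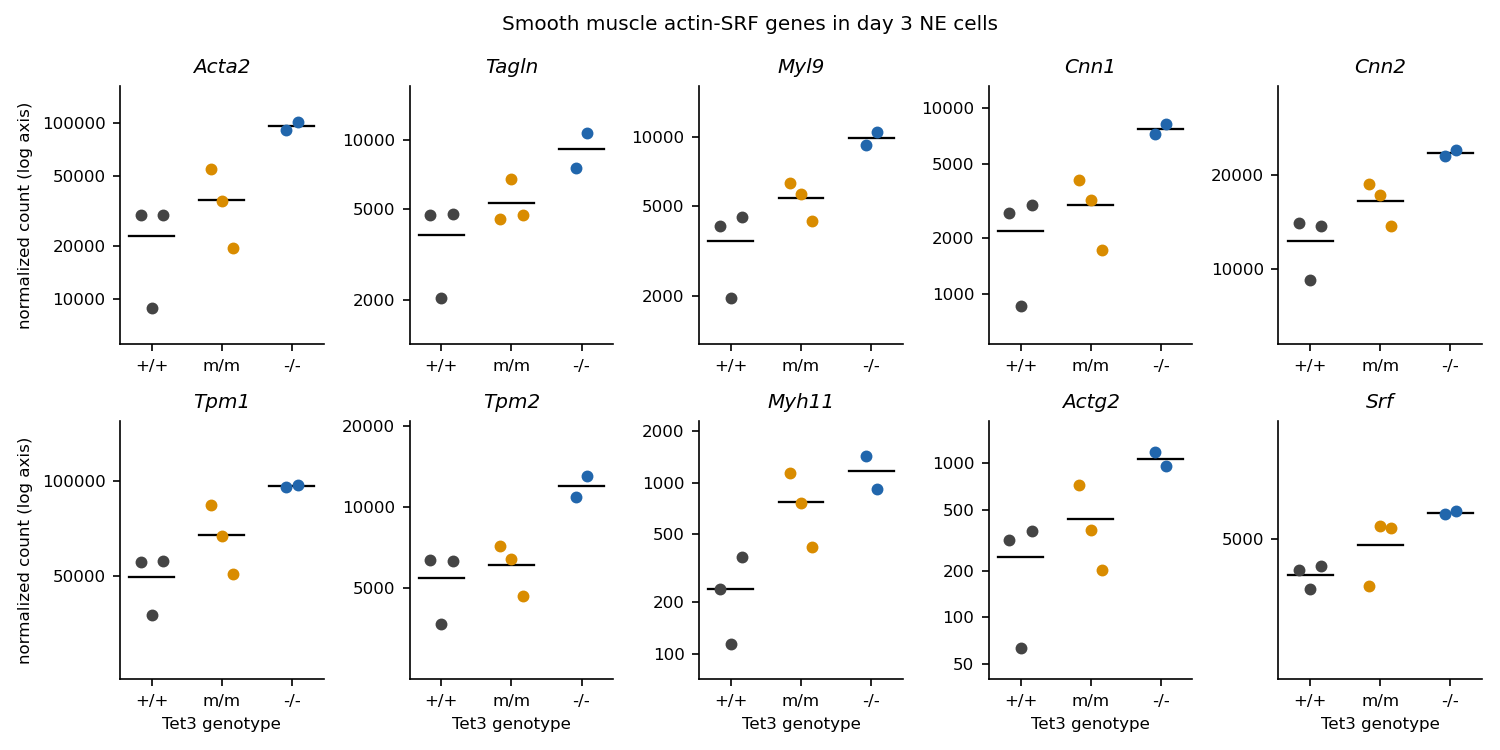
Normalized counts (log axis) of the 10 genes in day 3 NE cells by Tet3 genotype, 1 point per sample (3 Tet3+/+, 3 Tet3m/m, 2 Tet3-/-), with a line at the group mean. In every panel both Tet3-/- points lie above all Tet3+/+ points, and 1 Tet3+/+ sample lies apart at the bottom for most genes (8877 against 30084 and 29859 for Acta2).

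In the Dnmt1 experiment with EV alone, Tet3m/m and Tet3-/- cells lay on opposite sides of Tet3+/+ cells. All contractile genes were lower in EV Tet3m/m cells, with Acta2 the farthest at -2.68 on the log2 scale, and all were higher in EV Tet3-/- cells, with Acta2 again the farthest at 2.44. Of the 10 genes, 9 fell in Tet3m/m cells, where 21.2% of all genes were called and 10.9% as lower, and the same number rose in Tet3-/- cells, where 24.9% were called and 11% as higher. Srf was the gene not called in either. The median was -1.84 in Tet3m/m, a 3.59-fold lower level, and 1.06 in Tet3-/-, a 2.09-fold higher level, against 0.01 and 0.00 over all genes. Both comparisons share the 2 EV Tet3+/+ samples. The groups did not overlap for any of the 10 genes in either comparison, which held for 36.1% of all genes as lower in Tet3m/m and for 38.8% as higher in Tet3-/-.

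Acta2 measured 8759 and 8250 normalized counts in EV Tet3+/+, 1147 and 1539 in EV Tet3m/m and 47864 and 44240 in EV Tet3-/- cells. Actg2 measured 63.2 and 67.3, then 11 and 10.4, then 320 and 324. Both actins stood in the same clear order, with Tet3m/m lowest and Tet3-/- highest and tight pairs. Acta2 fell by 2.68 ± 0.10 in Tet3m/m (limma, adjusted p = 7.77e-15) and rose by 2.44 ± 0.10 in Tet3-/- cells (adjusted p = 6.33e-14). Actg2 fell by 2.50 ± 0.30 (limma, adjusted p = 5.69e-07) and rose by 2.29 ± 0.30 (adjusted p = 1.9e-06). Between EV Tet3-/- and EV Tet3m/m cells, Acta2 differed 34.6-fold and Actg2 27.6-fold. In this comparison 9 of the 10 genes were called higher in Tet3-/-, all but Srf, where 39.6% of all genes were called and 18.9% as higher, with a median of 2.77 against -0.01 over all genes. All 10 had every Tet3-/- value above every Tet3m/m value, as did 40.3% of all genes.

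Tagln measured 2348 and 2186 normalized counts in EV Tet3+/+, 335 and 427 in EV Tet3m/m and 6976 and 6247 in EV Tet3-/- cells. Cnn1 measured 1223 and 1045, then 250 and 307, then 3999 and 3354, and Cnn2 measured 12415 and 11518, then 3708 and 3851, then 21135 and 20051. All 3 actin-binding proteins repeated the order of the actins. In Tet3m/m cells Tagln fell by 2.58 ± 0.11 (limma, adjusted p = 3.14e-14), Cnn1 by 2.02 ± 0.13 (adjusted p = 2.24e-11) and Cnn2 by 1.66 ± 0.06 (adjusted p = 4.08e-15). In Tet3-/- cells Tagln rose by 1.54 ± 0.11 (limma, adjusted p = 2.01e-10), Cnn1 by 1.70 ± 0.13 (adjusted p = 4.65e-10) and Cnn2 by 0.78 ± 0.06 (adjusted p = 1.12e-09).

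Tpm1 measured 37410 and 36246 normalized counts in EV Tet3+/+, 12725 and 14507 in EV Tet3m/m and 58348 and 55599 in EV Tet3-/- cells, and Tpm2 measured 3574 and 3502, then 1467 and 1624, then 6884 and 6466. Myl9 measured 2989 and 2681, then 623 and 555, then 5114 and 4923. Myh11 measured 141 and 154, then 99.6 and 63.8, then 344 and 340. The tropomyosins and both myosin genes again had Tet3m/m at the bottom and Tet3-/- at the top. Tpm1 and Tpm2 fell by 1.44 ± 0.07 and 1.20 ± 0.08 in Tet3m/m, Myl9 fell by 2.27 ± 0.09 and Myh11 fell by 0.88 ± 0.21 (limma, largest adjusted p = 0.00176, for Myh11). In Tet3-/- they rose by 0.63 ± 0.07, 0.92 ± 0.08, 0.83 ± 0.09 and 1.21 ± 0.21 (limma, largest adjusted p = 6.39e-05, for Myh11).

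Srf measured 4719 and 4582 normalized counts in EV Tet3+/+, 3626 and 3661 in EV Tet3m/m and 5034 and 4885 in EV Tet3-/- cells. Its samples followed the order of the contractile genes within a far narrower range, a 1.36-fold difference between both mutants. It was 0.35 ± 0.05 lower on the log2 scale in Tet3m/m (limma, adjusted p = 1.32e-05), below the fold threshold, and 0.09 ± 0.05 higher in Tet3-/- cells (adjusted p = 0.157). Over the 12 samples of the experiment the highest value was 1.56 times the lowest for Srf, 7.12 times for Tpm1, 37.1 times for Tagln, 92.5 times for Acta2 and 104 times for Actg2.

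The direction in Tet3m/m cells was not shared by the experiments. The median of the 10 genes was 0.55 on day 3 and -1.84 with EV in the Dnmt1 experiment. Myh11 was called in both, with 1.73 ± 0.43 on day 3 and -0.88 ± 0.21 with EV. The tables were normalized separately and hold different samples, so that this difference was not tested. Markers of other cell types differed between genotypes as well. Among all genes, 21.2% were called in EV Tet3m/m and 10.2% in day 3 Tet3m/m cells. In the Dnmt1 experiment all 10 markers of extraembryonic endoderm, which includes Gata4, Sox17, Foxa2 and Dab2, were called higher in EV Tet3m/m cells with a median of 1.13, and their summed level was 507936 to 561538 normalized counts against 221892 to 230197 in EV Tet3+/+ and 100553 to 103640 in EV Tet3-/- cells. All 6 pluripotency markers, which include Pou5f1 and Nanog, rose there as well with a median of 1.39, and their sum was 53652 to 54211 in Tet3m/m, 19425 to 19640 in Tet3+/+ and 3159 to 3379 in Tet3-/- cells. On day 3, 8 of the 10 endoderm markers stood higher in Tet3m/m than in Tet3+/+ cells (median 0.35, 1 called). All 6 pluripotency markers did so too (median 0.66, 0 called). Between these 2 experiments the medians of both lists kept their direction, and that of the 10 contractile and Srf genes did not. In EV Tet3m/m cells of the Tet3-CD experiment, with 1 sample a group, the median was -2.09 for endoderm and 1.93 for pluripotency markers. It was 1.41 for the 10 genes there, so that the endoderm list did not keep its direction over all 3 experiments.

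Of 10 fibroblast markers with a value, which stand for feeder cells and other mesenchyme, 7 fell and 1 rose in EV Tet3m/m cells (median -2.04). In EV Tet3-/- cells 5 of these markers rose and 1 fell (median 0.95). Among all genes, 21.2% and 24.9% were called in these comparisons. The summed level of the fibroblast markers was 4369 to 4727 normalized counts in EV Tet3m/m, 21234 to 23273 in EV Tet3+/+ and 41402 to 41481 in EV Tet3-/- cells. This is the order of the contractile genes. On day 3 their sum was 20630 to 31880 in Tet3+/+, 13891 to 23727 in Tet3m/m and 46023 to 51571 in Tet3-/- cells. It was thus highest in Tet3-/- cells there too, and Tet3m/m sums overlapped Tet3+/+ sums. The summed level of the 10 smooth muscle actin-SRF genes in Tet3m/m cells, 105348 to 185716, also overlapped the Tet3+/+ sums of 68353 to 123203. The median difference in day 3 Tet3m/m cells was -0.23 for the fibroblast markers and 0.55 for the 10 genes. Limma called none of the 10 fibroblast markers between day 3 Tet3-/- and Tet3+/+ cells, where 0.642% of all genes were called. Of these markers, 4 had an unadjusted p under 0.05 by limma, and edgeR called 0 and DESeq2 1. No marker of these 3 lists was at 0 in a group of the day 3 or Dnmt1 experiments. The ESCs had been grown on feeder cells that were removed by pre-plating, and the part of any of these cell types in the levels of the contractile genes was not tested.

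**Figure D2:**
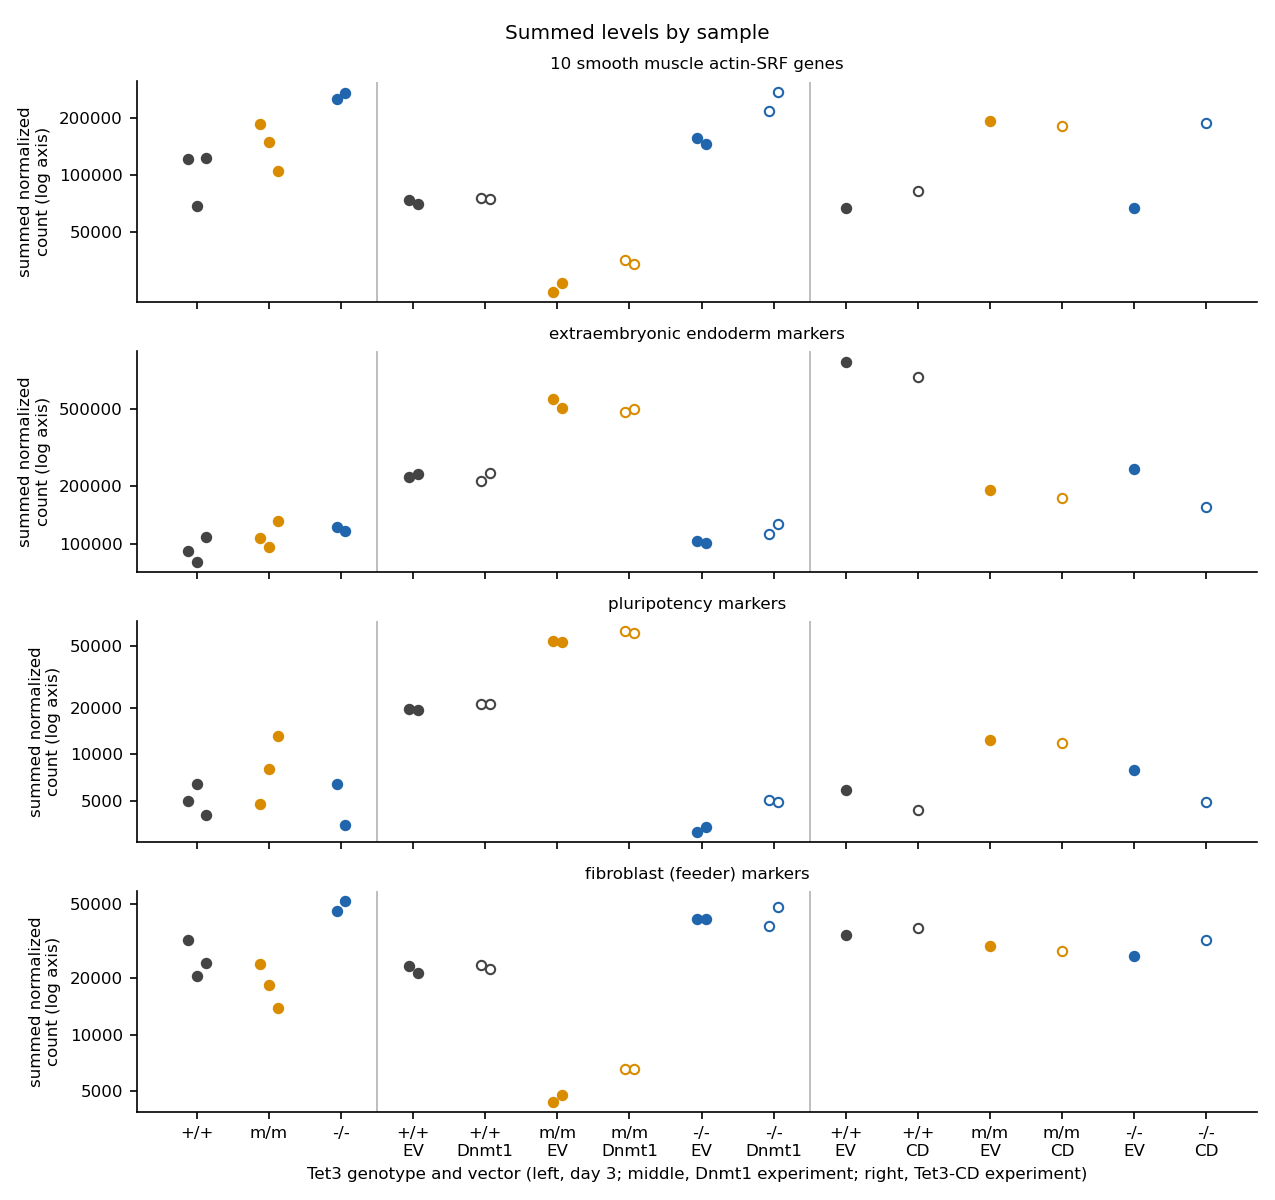
Summed normalized counts (log axis) of the 10 smooth muscle actin-SRF genes and of the extraembryonic endoderm, pluripotency and fibroblast markers, 1 point per sample, for day 3 cells (left), the Dnmt1 experiment (middle) and the Tet3-CD experiment (right), filled for no vector or EV and open for Dnmt1 or Tet3-CD (CD). In the Dnmt1 experiment EV Tet3m/m samples are lowest for the 10 genes (23991 to 26545) and highest for endoderm markers among EV samples (507936 to 561538).

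Actg2 lies close to Tet3 on the chromosome, with 1 gene between them in the GRCm38 order. The 100 genes nearest to Actg2, 50 on each side and Tet3 among them, had a median difference of -0.83 in day 3 Tet3m/m cells with 87 of them lower, and of -0.74 in EV Tet3m/m cells with 87 lower. In Tet3-/- cells these medians were 0.02 on day 3 and 0.16 with EV. Actg2 differed against the direction of its neighbours in day 3 Tet3m/m cells (0.96, which is 1.79 above their median) and with them, to a greater extent, in EV Tet3m/m cells (-2.50 against -0.74). The other 9 genes lie on other chromosomes than Tet3.

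With Dnmt1, most contractile genes stood higher than with EV in both Tet3 mutants, and least so in Tet3+/+ cells. Dnmt1 itself rose in each genotype, by 0.64 ± 0.07 in Tet3+/+, 0.90 ± 0.07 in Tet3m/m and 1.06 ± 0.07 in Tet3-/- cells (limma, largest adjusted p = 5.66e-06). Of the 10 genes, 1 rose in Tet3+/+ cells, Myh11, where 1.17% of all genes were called and 0.421% as higher. In Tet3m/m cells 3 rose, Acta2, Tagln and Myl9, where 2.46% were called and 1.78% as higher. In Tet3-/- cells 7 rose, all but Cnn2, Tpm1 and Srf, where 3.53% were called and 2.51% as higher. The medians of the 10 genes were 0.15, 0.42 and 0.76, against 0.00, -0.00 and 0.01 over all genes. Values with Dnmt1 lay all above those with EV for 6 of the 10 genes in Tet3+/+ cells (26.5% of all genes), for 8 in Tet3m/m (26.9%) and for 10 in Tet3-/- cells (27.3%), and all below for Tpm2 in Tet3+/+ cells (26.2%). Without the fold threshold, 2 of the 10 passed in Tet3+/+ cells, where 5.59% of all genes did, and 7 in Tet3m/m cells, where 10.2% did. Each comparison uses the EV samples already described as its control.

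With Dnmt1, Acta2 measured 11140 and 10693 normalized counts in Tet3+/+, 2726 and 2837 in Tet3m/m and 79137 and 106048 in Tet3-/- cells. Both Dnmt1 samples lay above both EV samples in each genotype. The difference was 0.36 ± 0.10 in Tet3+/+ (limma, adjusted p = 0.0481), below the fold threshold, and Acta2 rose by 1.06 ± 0.10 in Tet3m/m (adjusted p = 5.38e-07) and by 0.99 ± 0.10 in Tet3-/- cells (adjusted p = 2.52e-06). The excess over the difference in Tet3+/+ cells, tested in the same fit, was 0.70 ± 0.15 in Tet3m/m (limma, adjusted p = 0.015) and 0.63 ± 0.15 in Tet3-/- (adjusted p = 0.00847).

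Actg2 measured 104 and 78.6 normalized counts with Dnmt1 in Tet3+/+, 8.94 and 19.1 in Tet3m/m and 620 and 927 in Tet3-/- cells. The Tet3m/m values straddled the EV values of 11 and 10.4, and the Tet3-/- values lay above theirs. Actg2 rose by 1.23 ± 0.30 in Tet3-/- cells (limma, adjusted p = 0.00883), with differences of 0.47 ± 0.30 in Tet3+/+ and 0.27 ± 0.30 in Tet3m/m that did not pass.

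Tagln measured 2527 and 2556 normalized counts with Dnmt1 in Tet3+/+, 749 and 683 in Tet3m/m and 9138 and 12430 in Tet3-/- cells. Cnn1 measured 1345 and 1242, then 444 and 373, then 6360 and 8766, and Cnn2 measured 12585 and 11960, then 5064 and 4755, then 25345 and 30155. Dnmt1 values lay above EV values in both mutants for all 3 genes, and in Tet3+/+ cells for Tagln and Cnn1. Tagln rose by 0.92 ± 0.11 in Tet3m/m (limma, adjusted p = 7.49e-06) and by 0.69 ± 0.11 in Tet3-/- cells (adjusted p = 0.000209), and Cnn1 rose by 1.03 ± 0.13 in Tet3-/- cells (adjusted p = 1.48e-05). Cnn1 in Tet3m/m, at 0.55 ± 0.13, and Cnn2, at 0.38 ± 0.06 in Tet3m/m and 0.43 ± 0.06 in Tet3-/-, passed the adjusted p but not the fold threshold. The excess over Tet3+/+ was called for Tagln in Tet3m/m, at 0.75 ± 0.16 (limma, adjusted p = 0.0131), and for Cnn1 in Tet3-/-, at 0.83 ± 0.18 (adjusted p = 0.0049).

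Tpm1 measured 36145 and 36521 normalized counts with Dnmt1 in Tet3+/+, 19447 and 18257 in Tet3m/m and 74337 and 90571 in Tet3-/- cells, and Tpm2 measured 3370 and 3498, then 1985 and 1821, then 9778 and 12112. In Tet3+/+ cells neither tropomyosin lay higher than with EV, and in both mutants both did in all samples. Tpm2 rose by 0.71 ± 0.08 in Tet3-/- cells (limma, adjusted p = 3.02e-06) and exceeded the Tet3+/+ difference by 0.75 ± 0.11 (adjusted p = 0.000114). Tpm1 differed by 0.47 ± 0.07 in Tet3m/m and 0.53 ± 0.07 in Tet3-/-, past the adjusted p and below the fold threshold.

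Myl9 measured 3094 and 3118 normalized counts with Dnmt1 in Tet3+/+, 1023 and 897 in Tet3m/m and 7748 and 9953 in Tet3-/- cells. Myh11 measured 262 and 235, then 71.5 and 116, then 717 and 819. Myl9 lay above its EV values in all 3 genotypes, and Myh11 in Tet3+/+ and Tet3-/- cells, while its Tet3m/m values straddled those with EV. Myl9 rose by 0.70 ± 0.09 in Tet3m/m (limma, adjusted p = 1.9e-05) and 0.81 ± 0.09 in Tet3-/- cells (adjusted p = 4.69e-06), with an excess over Tet3+/+ of 0.67 ± 0.13 in Tet3-/- (adjusted p = 0.00179). Myh11 rose by 0.74 ± 0.21 in Tet3+/+ (limma, adjusted p = 0.0441) and by 1.16 ± 0.21 in Tet3-/- cells (adjusted p = 0.000831), and these did not differ past the threshold (0.42 ± 0.30, adjusted p = 0.45).

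Srf measured 4849 and 4665 normalized counts with Dnmt1 in Tet3+/+, 3860 and 3931 in Tet3m/m and 5663 and 5045 in Tet3-/- cells. It lay above the EV values in both mutants and overlapped them in Tet3+/+ cells, with differences of 0.03 to 0.11 on the log2 scale that did not pass. In all, the excess of the Dnmt1 difference over that in Tet3+/+ cells was called for 2 of the 10 genes in Tet3m/m, where 0.604% of all genes were called and 0.521% as higher, and for 4 in Tet3-/- cells, where 3.99% were called and 2.66% as higher. Without the fold threshold these counts were 4 and 7, where 1.31% and 9.71% of all genes passed. Without Dnmt1 Tet3-/- replicate 2, the higher of the pair for every contractile gene, 4 in place of 7 of the genes were called in Tet3-/- cells and 2 in place of 4 for the excess. The call of Myh11 in Tet3+/+ cells was lost without any 1 of the Tet3+/+ samples or of the EV Tet3-/- samples. The 2 calls of the excess in Tet3m/m became 0 without EV Tet3+/+ sample a or either Dnmt1 Tet3+/+ sample, and 1 without EV or Dnmt1 Tet3m/m replicate 1. Pluripotency marker sums with Dnmt1 were 60768 to 62496 in Tet3m/m and 4937 to 5103 in Tet3-/- cells, above the EV sums, and fibroblast marker sums were 6518 to 6533 and 38211 to 48403. Of the 10 fibroblast markers, 6 rose with Dnmt1 in Tet3m/m cells (median 0.66), whereas 3 fell and 0 rose in Tet3-/- cells (median -0.11). Among all genes, 2.46% and 3.53% were called in these comparisons. For the excess over Tet3+/+ cells, 3 were called higher in Tet3m/m and 2 lower in Tet3-/- cells. Their part in the result was not tested.

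**Figure D3:**
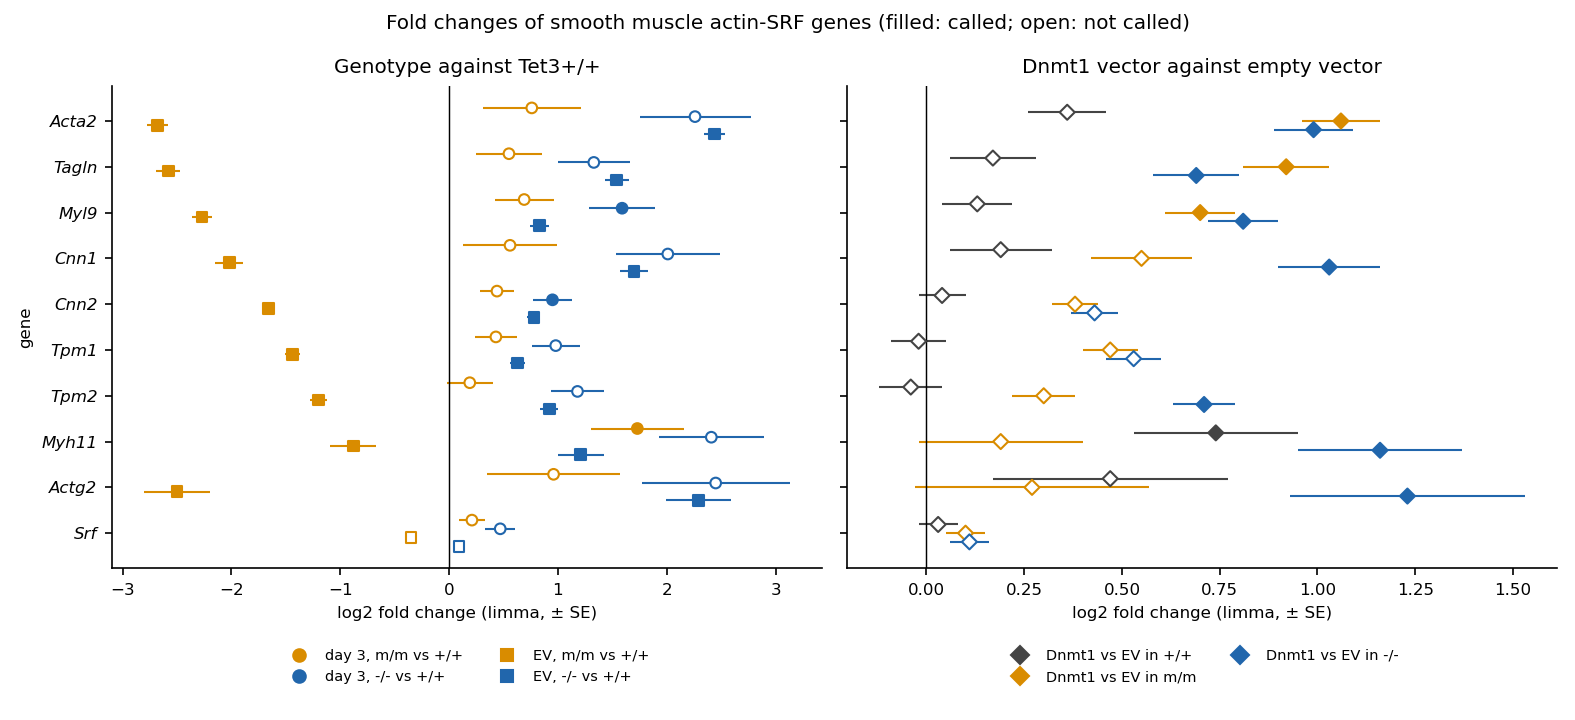
Differences on the log2 scale (limma, ± SE) of the 10 genes for genotype against Tet3+/+ (left; circles, day 3; squares, EV in the Dnmt1 experiment) and for Dnmt1 against EV within each genotype (right), filled where called and open where not. EV Tet3m/m differences lie between -2.68 and -0.35, left of 0, all other genotype differences lie right of 0, and the Dnmt1 differences of Tet3+/+ cells lie nearest to 0 for most genes.

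In the Tet3-CD experiment each group is 1 sample, so that the ratios have no replicate check and no test. With EV alone, the median of the 10 genes against Tet3+/+ cells was -0.19 on the log2 scale in Tet3-/- and 1.41 in Tet3m/m cells. With Tet3-CD, the medians were 1.27 and 1.04. Of the 10 genes, 9 were more than 1.5-fold higher with Tet3-CD than with EV in Tet3-/- cells, with a median of 1.95 on the log2 scale, a 3.85-fold level, where 21.5% of 17481 genes differed by more than 1.5-fold and 9.89% were higher. In Tet3+/+ and in Tet3m/m cells 0 of the 10 passed 1.5-fold, where 13.4% and 10.1% of all genes did, with medians of 0.35 and -0.07. Tet3 itself stood at 4755 with EV and 5441 with Tet3-CD in Tet3+/+, at 1850 and 5232 in Tet3m/m and at 2070 and 2759 in Tet3-/- cells. The library labelled Tet3-/- with Tet3-CD thus had a 1.33-fold level of Tet3, against 2.83-fold in Tet3m/m cells.

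Acta2 measured 15508 with EV and 20439 with Tet3-CD in Tet3+/+, 59464 and 57211 in Tet3m/m and 10581 and 60910 in Tet3-/- cells, a 5.76-fold ratio in the last. Actg2 measured 624 and 895, then 1267 and 1017, then 327 and 1734, and Cnn1 measured 1052 and 1415, then 4456 and 4479, then 932 and 4863. Tagln measured 2012 and 2627, then 7251 and 6484, then 1850 and 7945. In these genes EV Tet3-/- was the lowest of the 6 samples and Tet3-/- with Tet3-CD the highest.

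Myl9 measured 2288 with EV and 2536 with Tet3-CD in Tet3+/+, 6246 and 5993 in Tet3m/m and 1938 and 6696 in Tet3-/- cells. Cnn2 measured 8788 and 10334, then 21841 and 20620, then 13531 and 22758, and Myh11 measured 569 and 766, then 1067 and 1049, then 307 and 1379. The myosin genes followed the actins, and Cnn2 stood higher in EV Tet3-/- than in EV Tet3+/+ cells. Tpm1 measured 28858 and 36000, then 77657 and 73289, then 29328 and 66446, Tpm2 measured 3236 and 3926, then 8479 and 8113, then 4856 and 10445, and Srf measured 3609 and 3525, then 4397 and 4012, then 3148 and 4100. Srf was again the gene with the narrowest range, at 1.4 times from its lowest to its highest sample.

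Between genotypes, 9 of the 10 genes were more than 1.5-fold higher in EV Tet3m/m than in EV Tet3+/+ cells, with a median ratio of 2.66-fold, where 36.3% of all genes differed by that much and 20.2% were higher. In EV Tet3-/- cells 4 of the 10 passed 1.5-fold, Cnn2 and Tpm2 as higher and Myh11 and Actg2 as lower, where 27.1% of all genes did, 15.4% as higher and 11.7% as lower. With Tet3-CD, 7 were higher in Tet3m/m and 9 in Tet3-/- than in Tet3+/+ cells, where 34.1% and 28.8% of all genes passed and 19.3% and 17% as higher. EV Tet3+/+ cells of this experiment had a summed level of endoderm markers of 881999 normalized counts, against 189881 in EV Tet3m/m and 243415 in EV Tet3-/- cells, and of NE markers of 8357, against 17790 and 8730. With Tet3-CD the endoderm sum was 736503 in Tet3+/+, 172043 in Tet3m/m and 154799 in Tet3-/- cells. All 10 endoderm markers were more than 1.5-fold lower in both EV mutants than in EV Tet3+/+ cells, and in Tet3-/- cells 7 were so with Tet3-CD against EV. Their part in the levels of the contractile genes was not tested, and with 1 sample a group the genotype and the library cannot be told apart.

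**Figure D4:**
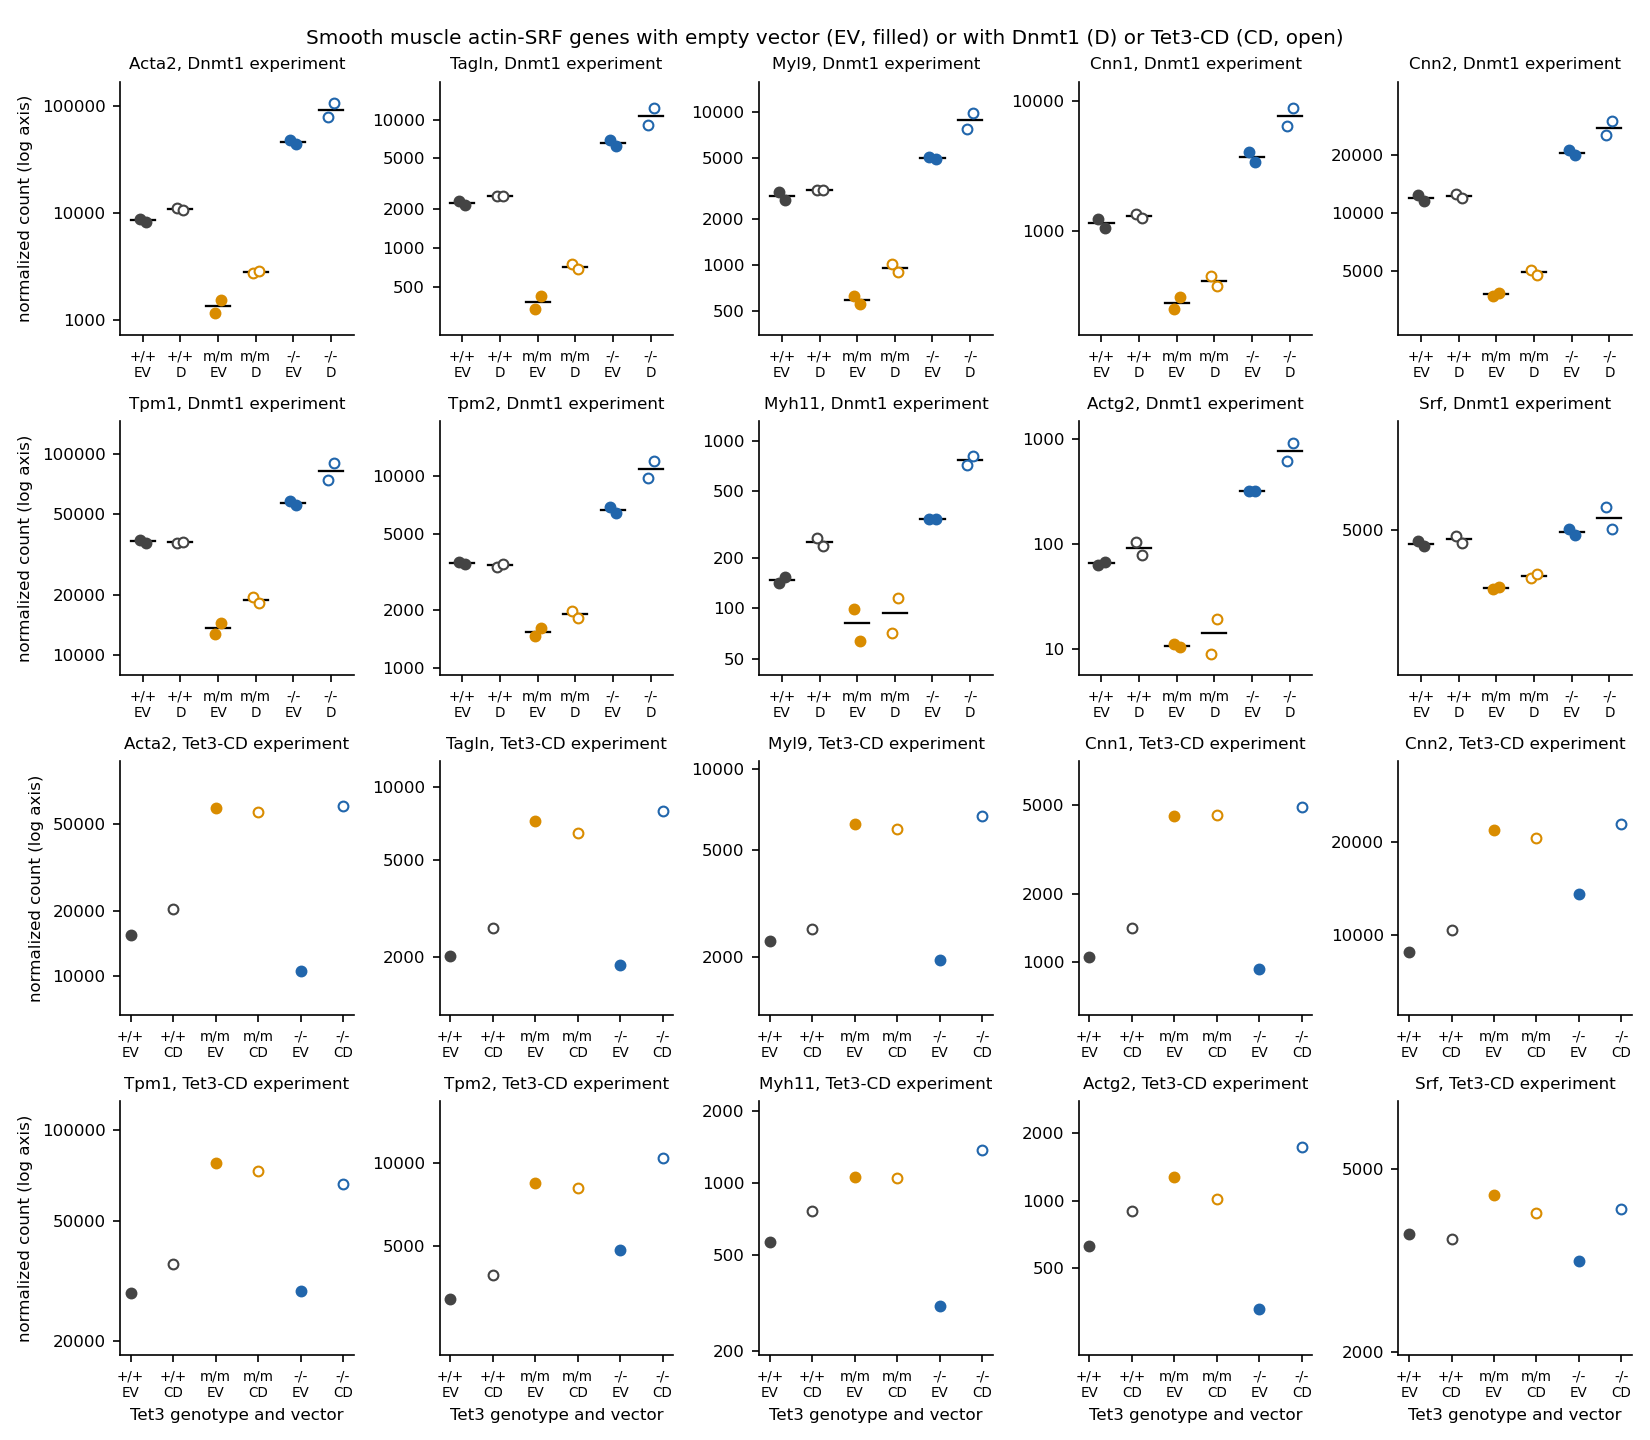
Normalized counts (log axis) of the 10 genes by genotype and vector in the Dnmt1 experiment (upper rows; filled, EV; open, Dnmt1; line, mean of 2 samples) and in the Tet3-CD experiment (lower rows; filled, EV; open, Tet3-CD; 1 sample a group). In the Dnmt1 experiment Tet3m/m points are lowest and Tet3-/- points highest. In the Tet3-CD experiment EV Tet3m/m lies above EV Tet3+/+ for all 10 genes, as for Acta2 at 59464 against 15508. EV Tet3-/- lies below EV Tet3+/+ for 7 genes, as for Acta2 at 10581, and above it for Cnn2, Tpm1 and Tpm2.

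Other genes of the contractile program largely followed the 10. For the lists from here on, the shares of all genes called were 10.2% in day 3 Tet3m/m and 0.642% in day 3 Tet3-/- cells. They were 21.2% in EV Tet3m/m and 24.9% in EV Tet3-/- cells. With Dnmt1 they were 1.17% in Tet3+/+, 2.46% in Tet3m/m and 3.53% in Tet3-/- cells. A list of 15 further contractile genes includes the sarcomeric actins Acta1 and Actc1, so that it is not particular to smooth muscle. Of the 15, 4 rose and 0 fell in day 3 Tet3m/m cells (median 0.52). Among those that rose were Tgfb1i1 at 1.33 ± 0.29, the myosin kinase Mylk at 1.05 ± 0.28 and the LIM protein Csrp1 at 0.97 ± 0.24. In day 3 Tet3-/- cells 2 rose (median 1.07), Tgfb1i1 at 1.71 ± 0.33 and the PDZ-LIM protein Pdlim7 at 0.94 ± 0.16. In EV Tet3m/m cells 9 fell and 0 rose (median -0.78), led by the sarcomeric actins Actc1 at -3.50 ± 0.22 and Acta1 at -2.59 ± 0.08 and by caldesmon (Cald1) at -1.98 ± 0.07. In EV Tet3-/- cells 10 rose and 1 fell (median 1.00), with Cald1 at 1.76 ± 0.07, leiomodin (Lmod1) at 1.56 ± 0.13 and the potassium channel subunit Kcnmb1 at 2.60 ± 0.91, which rests on means of 20.2 and 2.56 normalized counts, and with the integrin Itga8 at -1.13 ± 0.10. With Dnmt1, limma called 0 of the 15 in Tet3+/+ cells (6 with an unadjusted p under 0.05; edgeR and DESeq2 called 0), 1 in Tet3m/m cells, Itga8 at 1.16 ± 0.10, and 4 in Tet3-/- cells, among them Tgfb1i1 at 0.92 ± 0.10, Actc1 at 0.84 ± 0.22 and Csrp1 at 0.80 ± 0.08. Of the 14 of these genes with a promoter entry, 3 held a perfect CArG box, Acta1, Actc1 and Vcl.

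Among 11 tested cofactors and regulators of SRF, limma called 0 in either mutant on day 3 (3 with an unadjusted p under 0.05 in Tet3m/m and 6 in Tet3-/-; edgeR called 0 in both, DESeq2 1 and 4). In EV Tet3m/m cells 1 rose and 1 fell, the latter the actin-binding LIM protein Ablim1 by 0.98 ± 0.12, where 21.2% of all genes were called. In EV Tet3-/- cells 6 rose and 1 fell, where 24.9% of all genes were called. Among those that rose, Ablim1 rose by 1.18 ± 0.12, the LIM cofactor Fhl2 by 0.95 ± 0.17 and the myocardin-related factor Mrtfb by 0.68 ± 0.08. With Dnmt1, limma called Fhl2 in Tet3-/- cells, at 0.80 ± 0.17, and 0 of the 11 in Tet3+/+ and in Tet3m/m cells (2 and 3 with an unadjusted p under 0.05; edgeR and DESeq2 each called 1 in either genotype). Abra, the last of the list, is not listed in the tables.

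The immediate early genes are SRF targets that answer to growth signals through the ETS-type cofactors rather than to actin. Of 10 such genes, 1 rose in day 3 Tet3m/m cells, Egr3 at 1.36 ± 0.27, and 3 rose in Tet3-/- cells, Egr3 at 2.16 ± 0.31, Junb at 1.19 ± 0.20 and Egr1 at 1.09 ± 0.21. In EV Tet3m/m cells 3 of 9 tested fell, Fosb at -0.94 ± 0.21, Junb at -0.80 ± 0.06 and Fos at -0.67 ± 0.13, where 10.9% of all genes were called as lower. In EV Tet3-/- cells 7 of 9 rose, with Fosb at 2.02 ± 0.21, Egr3 at 1.91 ± 0.28 and Fos at 1.76 ± 0.13, where 11% of all genes were called as higher. With Dnmt1, limma called 0 of the 9 in any genotype (1, 3 and 5 with an unadjusted p under 0.05 in Tet3+/+, Tet3m/m and Tet3-/-; edgeR and DESeq2 each called 1 in Tet3-/- and 0 elsewhere).

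Of 13 non-muscle counterparts of the 10 genes, 4 fell in EV Tet3m/m cells (median -0.30), among them the non-muscle myosin Myh10 at -1.59 ± 0.05 and the tropomyosin Tpm4 at -0.77 ± 0.05, and 4 rose in EV Tet3-/- cells (median 0.33). Among all genes, 10.9% were called as lower in EV Tet3m/m and 11% as higher in EV Tet3-/- cells. On day 3, 1 rose and 2 fell in Tet3m/m cells, Tagln2 at 0.59 ± 0.13, Tagln3 at -1.84 ± 0.25 and Myh14 at -0.63 ± 0.15.

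Called markers of other muscle and vascular cells took no single direction. Of 10 cardiac markers, 3 rose and 1 fell in day 3 Tet3m/m cells, 1 rose and 3 fell in EV Tet3m/m cells, and 5 rose and 4 fell in EV Tet3-/- cells. The cardiac medians were 0.37 in day 3 Tet3m/m, 0.49 in day 3 Tet3-/-, -0.41 in EV Tet3m/m and 0.95 in EV Tet3-/- cells. These had the signs of the medians of the 10 genes. With EV the cardiac sums were 895 to 953 in Tet3m/m, 1248 to 1259 in Tet3+/+ and 1896 to 1983 in Tet3-/- cells, the order of the contractile genes. Of 5 endothelial markers with a value, 1 rose and 1 fell in day 3 Tet3m/m cells, 3 rose in EV Tet3m/m and 4 fell in EV Tet3-/- cells. The endothelial medians were 0.53, -0.07, 0.80 and -0.99 in the order of the cardiac ones. Of 6 skeletal muscle markers only Mylpf and Tnnt3 had a value, and both fell in EV Tet3m/m cells. Among all genes, 10.2% were called in day 3 Tet3m/m, 21.2% in EV Tet3m/m and 24.9% in EV Tet3-/- cells. In day 3 Tet3-/- cells limma called 0 of the 3 lists (3 cardiac and 1 endothelial marker with an unadjusted p under 0.05; edgeR called 0 and DESeq2 1, a cardiac marker).

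The profile of the 10 genes over the 20 samples of the day 3 and Dnmt1 experiments was summarized by the median of their log2 values, each centred on its mean in the experiment. Among 12438 genes with enough reads, likeness to this profile was measured by the root mean square difference, whose median over all genes was 1.08. Myl9, which is itself in the median, came closest at 0.14, followed by Anxa3, a membrane-binding annexin, at 0.23, by Nexn, an actin filament-binding protein, Fosl2, an AP-1 factor, and Thbs1, a matrix glycoprotein, each at 0.25, and by Samd4, an RNA-binding protein, at 0.26. All of the 10 are part of the median, and other genes lie between them in the ranking. Cnn2 stood at 0.27, Tpm2 at 0.29, Tpm1 at 0.35, Tagln at 0.38, Cnn1 at 0.40 and Myh11 at 0.47 (rank 111). The farthest of the 10 were Acta2 at 0.74 (rank 858) and Actg2 at 0.84 (rank 1569), whose range was wider than that of the median. Srf, whose range was narrower, came last of the 10 at 0.91 (rank 2317). Of the closest other genes, Anxa3 differed by 1.01 in day 3 Tet3-/-, -1.54 in EV Tet3m/m and 1.17 in EV Tet3-/- cells, and Thbs1 by 1.13, -1.37 and 1.24 on the log2 scale. Several of the 20 samples serve as shared controls, so that these measures are a description only.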

How the data were processed

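RNA-seq values of 26 of 35 labelled samples were used, and the other 9, of other assays, were not analysed here. The authors trimmed reads with Trim Galore 0.6.7, aligned them with STAR 2.7.9a to mm39 (the labels name mm10), obtained gene counts with featureCounts and scaled these by DESeq2 size factors. The deposited signal values are these normalized counts, and 100.0% were whole multiples of 1 read within 0.01, so that reads could be recovered. Day 3 samples held 36594650 to 47710548 recovered reads, Dnmt1 samples 31155842 to 50845950 and Tet3-CD samples 33475041 to 37707719, and this depth bears on counting error only.

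Groups and replicate numbers followed the labels. Genes with a mean value of at least 10 were tested (17915 of 17948, 18055 of 18091, and 17481 of 17705, the last by ratio only). The test was limma 3.58.1, run in R 4.3.3 on log2(value + 1), with 1 fit per experiment over all its groups with moderated variances and a mean trend. Benjamini-Hochberg adjustment ran over the whole table. A called gene passed 1.5-fold and had an adjusted p below 0.05. In the Tet3-CD experiment, with 1 sample a group, called means past 1.5-fold. Each result was refitted with a pseudocount of 0.1 or 5, without the filter or with a minimum mean of 50, with edgeR 4.0.16 and DESeq2 1.42.0 on the recovered reads, with TMM scaling, on the compared groups only, with each sample left out in turn and with no fold threshold. A replicate block was fitted only to comparisons whose groups all have replicate numbers, which leaves out those that use the EV Tet3+/+ samples. The scripts were tested on simulated data.

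The 10 genes, the gene lists and the markers were chosen with earlier results of these data known. Named are the 10 genes, Tet3, Dnmt1, of each list up to 3 called genes per direction, and the 5 other genes closest to the 10 (mean of at least 100 in both replicated experiments). Promoters and exon lengths are from RefSeq GRCm38.p6 tables and the GRCm38 annotation, used without converting coordinates. Python 3.11.15 and pandas 2.3.3 were used for tables. Some genes of the lists are not reported here.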

Additional observations from a re-analysis of the deposited data

Results flagged for a closer look

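For 6 results the effect of Dnmt1 differed between genotypes by a test of the difference itself (limma, past 1.5-fold and with p under 0.05 after Benjamini-Hochberg adjustment). In Tet3m/m cells the difference of Dnmt1 against EV exceeded that in Tet3+/+ cells by 0.70 for Acta2 and by 0.75 for Tagln on the log2 scale. In Tet3-/- cells it exceeded that in Tet3+/+ cells by 0.63 for Acta2, 0.67 for Myl9, 0.83 for Cnn1 and 0.75 for Tpm2. Dnmt1 itself differed between EV and Dnmt1 samples by 0.64 in Tet3+/+, 0.90 in Tet3m/m and 1.06 in Tet3-/- cells, and the part of this in the result was not tested.

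Myh11 moved in opposite directions in Tet3m/m cells of different experiments, with 1.73 on day 3 and -0.88 with EV in the Dnmt1 experiment, every Tet3m/m sample lying above the Tet3+/+ samples in the first and below them in the second. The difference between the experiments was not tested.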

How the results depend on the processing

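Directions of the 10 genes held under every alternative that kept all samples. The number of genes called in day 3 Tet3-/- against Tet3+/+ cells, 2 as reported, was 0 with a pseudocount of 0.1, a minimum mean of 50, edgeR or TMM scaling, 4 with a pseudocount of 5, 7 in a fit of the compared groups only and 8 with DESeq2. Against Tet3m/m, 1 as reported became 2 with DESeq2 and 4 with the compared groups only. For Dnmt1 in Tet3+/+ cells, 1 as reported became 0 with a pseudocount of 0.1 and 2 without the fold threshold, and for Dnmt1 in Tet3m/m cells 3 became 7 without it. For the excess of the Dnmt1 difference, 2 in Tet3m/m became 0 with DESeq2 and 4 without the fold threshold, and 4 in Tet3-/- became 7 without it. The cause of these shifts was not tested.

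With each sample left out in turn, the count ranged from 0 to 2 for day 3 Tet3m/m, 0 to 9 for day 3 Tet3-/-, 0 to 5 between both mutants, 8 to 9 for EV Tet3m/m, 9 to 9 for EV Tet3-/- and for both EV mutants, 0 to 1, 3 to 4 and 4 to 8 for Dnmt1 in Tet3+/+, Tet3m/m and Tet3-/- cells, and 0 to 3 and 2 to 6 for the excess in Tet3m/m and Tet3-/-. The sign turned in part of these fits for Cnn1 and Tpm2 in day 3 Tet3m/m (-0.02 to 0.92 and -0.07 to 0.37), for Cnn2 and Tpm1 with Dnmt1 in Tet3+/+ (-0.02 to 0.09 and -0.04 to 0.00), for Myh11 and Actg2 with Dnmt1 in Tet3m/m (-0.16 to 0.54 and -0.23 to 0.78), and for the excess of Actg2 in Tet3m/m (-0.70 to 0.31) and of Srf in Tet3-/- (-0.01 to 0.16). None of these was called. The replicate block, which could not be fitted to comparisons that use the EV Tet3+/+ samples, changed no count of the 10 genes in the others. Same-numbered samples deviated together with r of -0.0977 to 0.082 on day 3, so that they share only a number. Depth limits only Actg2 and Myh11, with values as low as 8.94 and 63.8.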
